A study of Homo sapiens with 30 samples.

Results

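The MEF2 family and the class IIa histone deacetylases were followed in LOUCY cells, an established cell line of early T cell precursor acute lymphoblastic leukemia that carries a rearrangement near *MEF2C*. The members are *MEF2A*, *MEF2B*, *MEF2C*, *MEF2D*, *HDAC4*, *HDAC5*, *HDAC7* and *HDAC9*, taken by symbol from the platform annotation, 8 genes, of which 7 are among the 19775 with a probe set that carries 1 symbol. They hold 23 of the 54613 probe sets on the Affymetrix HG U133 Plus 2.0 array, and 22 of these name 1 gene. Each gene stands for its brightest probe set, by the mean of all 30 arrays, and *MEF2C* is given by each of its 3. *MEF2B* had only probe set 205124_at, shared with *BORCS8* and *BORCS8-MEF2B*, with condition means of 3.80 to 4.01, so 7 of the 8 genes could be measured. All values are log2 expression values made by RMA, which places the arrays on 1 common distribution.

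The LOUCY_MEF2C-BFP line carries a doxycycline-inducible (dox-inducible) construct of codon-optimized *MEF2C* that lacks the β transactivation domain and is coupled to the blue fluorescent protein BFP. Its cultures were plain medium, OP9-GFP mouse stroma, and OP9-DL1 stroma that carries the Notch ligand Delta-like 1, each with dox and without. A second line carries a MEF2C construct together with one of the intracellular domain of NOTCH1 (ICN, the active form of the receptor). Another carries an ICN construct alone. The sample titles of these lines give overexpression or none and name no stroma, and the main text of the study does not describe them. Their arrays are taken here as medium with dox and without. This gives 10 conditions of 3 arrays. None of them is a line without an inducible construct, so an effect of dox itself and that of an induced construct cannot be told apart. All lines hold the endogenous, rearranged *MEF2C*. The arrays read whole populations, and the study describes its dox-inducible MEF2C line as a bulk line. A lower level in fewer cells and a lower level per cell therefore cannot be told apart. Nothing in the labels says whether the 3 arrays of a condition are separate cultures, so the spread between them may be technical.

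MEF2 proteins are MADS-box transcription factors that bind an AT-rich element, and MEF2C is known from muscle, bone, neurons and the early lymphoid lineage. Class IIa histone deacetylases have little enzymatic activity of their own, bind MEF2 on DNA and bring in corepressors. Phosphorylation by CaM kinases, protein kinase D or salt-inducible kinases (SIK) makes them bind 14-3-3 proteins and leave the nucleus, which frees MEF2.

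In GRCh38.p14, RefSeq places *MEF2C* at chr5:88717117-88904105, *MEF2A* at chr15:99565417-99716488, *MEF2D* at chr1:156463727-156500775, *HDAC4* at chr2:239048168-239401649, *HDAC5* at chr17:44076753-44123641, *HDAC7* at chr12:47782722-47821344 and *HDAC9* at chr7:18086825-19002416. A promoter sequence, 250 bases before to 50 after a start, was at hand for 23 starts of 7 members, with none for *HDAC5*. The MEF2 element CTAAAAATAG, searched on both strands as 10 letters, stood in 2 of these 23, against 50 of all 34943 promoters (0.143%). The MEF2 consensus, which also covers the first pattern, stood in 3 of 23, against 1048 of 34943 (3%). The 3 matches are shown because the induced factor belongs to the family that binds such letters, each with the 20 bases before it, 5′ to 3′ on the strand of the gene, the element in capitals.
MEF2A, chr15:99565941-99565970 (+), starting 23 bases before an internal start of the gene: gtctggccgaggcttgtctcCTAAAAATAG
HDAC9, chr7:18086797-18086826 (+), starting 8 bases before the gene start: acttccctccccaagaagtgCTATTTTTAG
MEF2C, chr5:88824510-88824539 (-), starting 175 bases before an internal start of the gene: ctaagattaaatattccataTTATTTTTAA
The HDAC9 letters are the reverse complement of the first pattern, and the MEF2C match meets only the consensus. A match of letters is not a bound site.

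Across arrays, the Pearson correlation between 2 arrays of 1 condition was 0.990 to 0.998. Replicate 2 of OP9-GFP without dox stood farthest from the others of its condition, and values are given without it where that changed a call or moved a value by over 1.5 times. Of the 8 T cell and LOUCY markers, *CD3D* had condition means of 11.08 to 13.01, *LYL1* of 8.20 to 10.28, *LMO2* of 7.52 to 8.97, *CD3E* of 7.42 to 8.50, *CD7* of 6.56 to 7.68 and *CD5* of 4.95 to 6.76, whereas *CD34* at 5.23 to 5.48 and *CD2* at 3.37 to 3.71 were dim in every condition. The 7 stromal markers summed to 37.5 to 38.8 on stroma and 37.8 to 38.4 in medium in the LOUCY_MEF2C-BFP line. Members went both ways: on OP9-GFP over medium without dox, *COL1A2* was higher by 0.80 (adjusted p = 0.0103) and *SPARC* lower by -0.33 (adjusted p = 0.00479), and with dox *ACTA2* was lower by -0.45 (adjusted p = 0.0207) and *SPARC* by -0.27 (adjusted p = 0.0248). Their part in the differences between stroma and medium was not tested. The stroma is from mouse and the array carries human probe sets, so these markers do not measure how much stroma was carried over. The *NOTCH1* probe set 218902_at did not follow ICN induction, at 7.58 with dox and 7.57 without in the ICN line, and does not check those labels. *DTX1*, a Notch target, rose to 8.12 with dox in the ICN line, against 5.81 without, and to 7.26 with dox in the MEF2C and ICN line, against 4.48 without. Other Notch targets did not follow ICN induction alike: *NRARP* changed by -0.30 (adjusted p = 0.0626) and *HES4* by 0.39 (adjusted p = 0.676) with ICN alone, and by -0.11 (adjusted p = 0.601) and 1.34 (adjusted p = 0.0433) with MEF2C and ICN. *HES1*, another Notch target, rose by 0.40 with ICN alone (adjusted p = 0.00746) and by 1.57 with MEF2C and ICN (adjusted p = 4.1e-12). It was already at 10.19 in the ICN line and 9.34 in the MEF2C and ICN line without dox. In the LOUCY_MEF2C-BFP line in medium without dox it was at 5.59, so the lines without dox differ in this gene. Without dox, *DTX1* and *HES4* were also higher in the ICN line than in the LOUCY_MEF2C-BFP line, by 1.55 (adjusted p = 3.97e-07) and 1.78 (adjusted p = 0.00408), and *NRARP* was not called (0.18, adjusted p = 0.244). In the MEF2C and ICN line *DTX1* (0.23, adjusted p = 0.433), *HES4* (0.65, adjusted p = 0.345) and *NRARP* (0.09, adjusted p = 0.643) did not pass that test.

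Dox lowered 2 of the 3 *MEF2C* probe sets about equally in all 3 cultures of LOUCY_MEF2C-BFP cells, and raised the third. Probe set 209199_s_at read 9.19, 9.25 and 9.17 with dox in medium, against 10.28, 10.31 and 10.25 without. On OP9-GFP it read 8.98, 8.98 and 8.95 with dox, against 10.13, 10.06 and 10.09 without. On OP9-DL1 it read 9.32, 9.29 and 9.26 with dox, against 10.31, 10.31 and 10.23 without. All 9 arrays with dox were below all 9 without. Over the 3 cultures the change was -1.06 ± 0.06 (SE, 2.09-fold lower with dox, adjusted p = 3.13e-10, limma), and the single cultures gave -1.08 (medium), -1.12 (OP9-GFP) and -0.99 (OP9-DL1). Probe set 209200_at changed by -1.07 ± 0.08 (adjusted p = 1.01e-08). The study describes most *MEF2C* probe sets as lying outside the cloned cDNA, so that they read the endogenous transcript, and the remaining one as also covering the construct. It counts more probe sets than the annotation used here assigns to *MEF2C*, and which of them is which is not stated in the sources used here.

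The probe set 207968_s_at changed by +0.79 ± 0.12 over the 3 cultures (adjusted p = 0.000218). It read 8.36, 8.09 and 8.17 with dox in medium, against 7.62, 7.72 and 7.70 without. The arrays on OP9-GFP read 8.68, 8.72 and 8.67 with dox, against 7.83, 6.90 and 7.68 without, and the array at 6.90 is the one that stood apart. On OP9-DL1 it read 8.66, 8.37 and 8.62 with dox, against 7.92, 7.88 and 7.98 without. The groups did not overlap in any culture. The differences between the cultures, of 0.70 ± 0.20 for OP9-GFP minus medium (adjusted p = 0.234) and -0.60 ± 0.20 for OP9-DL1 minus OP9-GFP (adjusted p = 0.368), did not pass the test. Without the array at 6.90 they were 0.41 (adjusted p = 0.361) and -0.32 (adjusted p = 0.683), and with 1 replicate number left out they ranged over 0.319 to 0.989 and over -0.843 to -0.235. The rise lost its call when replicate number 1 or 3 was left out, in medium (adjusted p = 0.337 and 0.233) and on OP9-DL1 (adjusted p = 0.145 and 0.224).

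**Figure D1:**
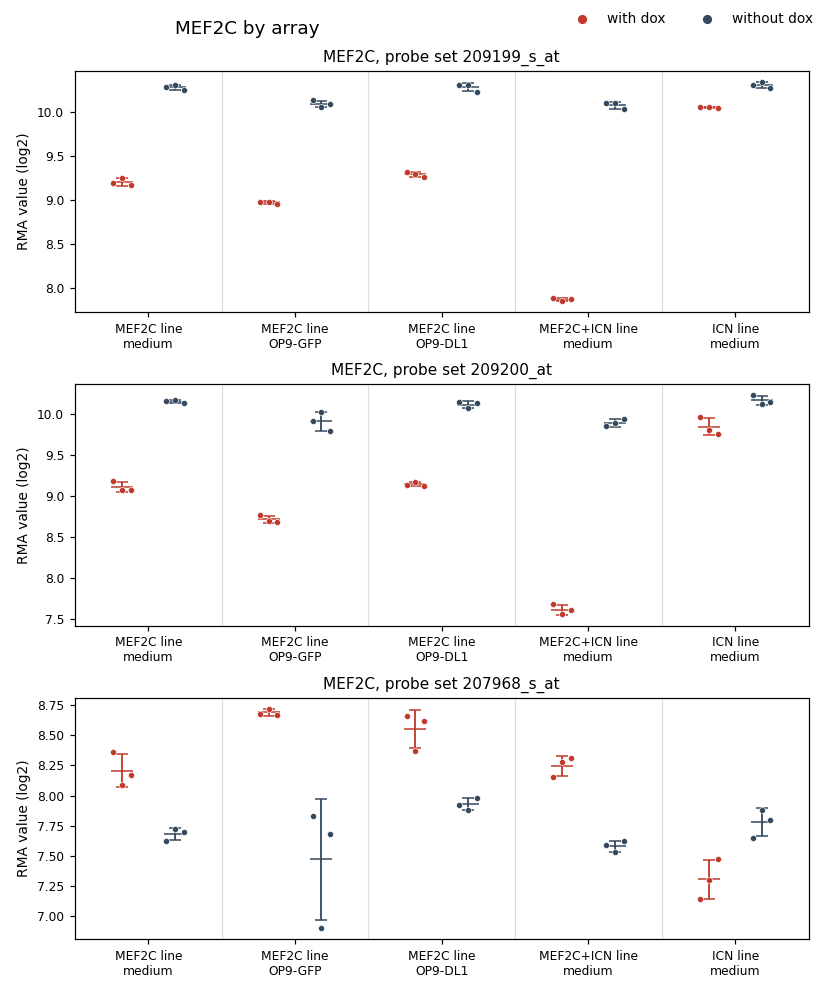
RMA values (log2, y axis) of the 3 *MEF2C* probe sets by line and culture (x axis), with dox in red left of without dox in dark blue. Points are the 3 arrays, and bars are the mean ± SD. The upper 2 probe sets are lower with dox everywhere, least in the ICN line at -0.26 and -0.32, and 207968_s_at is higher with dox wherever the MEF2C construct is present and lower in the ICN line.

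The fall of *MEF2C* was larger with MEF2C and ICN together. In that line 209199_s_at read 7.88, 7.85 and 7.87 with dox, against 10.10, 10.10 and 10.03 without, a change of -2.21 ± 0.05 (4.62-fold lower with dox, adjusted p = 2.6e-21). The second probe set, 209200_at, read 7.68, 7.56 and 7.61 with dox, against 9.85, 9.89 and 9.94 without, a change of -2.28. With ICN alone, 209199_s_at read 10.06, 10.05 and 10.04 with dox, against 10.31, 10.34 and 10.27 without. This change of -0.26 ± 0.05 (adjusted p = 0.000439) was small, with no overlap of the groups, and its call was lost with only the arrays of that comparison (adjusted p = 0.0816) or without replicate number 2 (adjusted p = 0.0517). The change in the MEF2C and ICN line was lower than that in the LOUCY_MEF2C-BFP line in medium by -1.13 ± 0.07 (adjusted p = 4.88e-12), and lower than that in the ICN line by -1.95 ± 0.07 (adjusted p = 3.71e-16). The third probe set, 207968_s_at, read 8.15, 8.28 and 8.31 with dox in the MEF2C and ICN line, against 7.59, 7.53 and 7.62 without. In the ICN line, which has no MEF2C construct, it read 7.14, 7.30 and 7.47 with dox, against 7.65, 7.88 and 7.80 without. The difference between these 2 inductions was 1.14 ± 0.20 (adjusted p = 0.000394).

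Ordered by 209199_s_at, the highest means were 10.31 in the ICN line without dox, 10.29 on OP9-DL1 without dox and 10.28 in medium without dox. Their arrays overlap, as do those of the next 3, OP9-GFP without dox (10.09), the MEF2C and ICN line without dox (10.08) and the ICN line with dox (10.05). Then came OP9-DL1 with dox (9.29), medium with dox (9.20), OP9-GFP with dox (8.97) and the MEF2C and ICN line with dox (7.87), with no overlap between neighbours. Without dox, OP9-DL1 differed from OP9-GFP by 0.19 ± 0.05 (adjusted p = 0.0439, or 0.136 without the OP9-GFP array that stood apart). With dox this difference was 0.32 ± 0.05 (adjusted p = 0.000308), and on 209200_at 0.42 ± 0.06. OP9-GFP was lower than medium by -0.19 without dox (adjusted p = 0.00673) and by -0.23 with dox (adjusted p = 0.000983). Each of these culture differences was lost for at least 1 replicate number left out, with adjusted p of 0.0538 to 0.626, save that on 209200_at for OP9-GFP over medium with dox (-0.39, adjusted p = 6.09e-05).

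Over all members, MEF2C induction pooled over the 3 cultures called 2 of 7, *MEF2C* lower and *HDAC5* higher, against 5.41% of all probe sets called in either direction. *MEF2C* is the gene that was induced, so its own call says nothing about the rest. The median change over the 7 was 0.04, against -0.005 over all probe sets. The pooled fit had no term for culture, so differences between cultures stay in its error. With the culture as a covariate, 2 of 9 probe sets of these members gained a call, *HDAC4* among them, and 0 lost one. That covariate was not run for the gene lists given further below, so their pooled counts carry the same limit. Within cultures 2 of 7 were called in medium (6.32% of all probe sets), 4 of 7 on OP9-GFP (6.19%) and 3 of 7 on OP9-DL1 (4.33%). None of the 7 differed between OP9-DL1 and OP9-GFP induction (0.148% of all probe sets) or between OP9-GFP and medium induction (0.342%) by limma. At an unadjusted p under 0.05 these counts were 3 and 2 of 7. ICN induction called 4 of 7 (12.4%), and MEF2C and ICN induction 5 of 7 (13.3%). Induction in the MEF2C and ICN line differed from that in the LOUCY_MEF2C-BFP line for 3 of 7 (7.9%) and from that in the ICN line for 3 of 7 (7.64%).

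**Figure D2:**
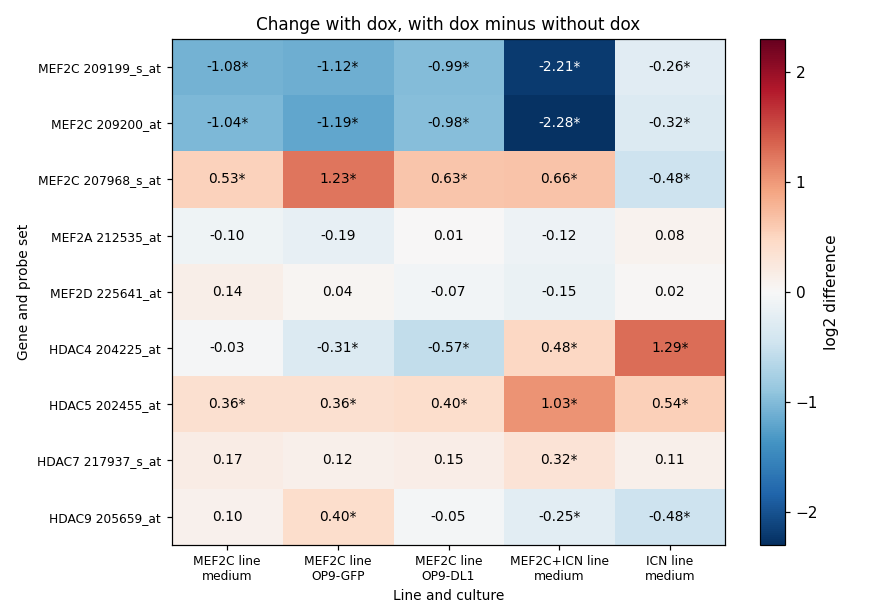
Change with dox (log2, with dox minus without dox) of 9 probe sets of the 7 measured members (y axis) in each line and culture (x axis), from 1 limma fit over 30 arrays. Red is higher and blue lower with dox, and an asterisk marks an adjusted p under 0.05. *HDAC5* is higher in all 5 columns, *HDAC4* spans -0.57 to 1.29, and *MEF2A* and *MEF2D* carry no asterisk.

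Of the MEF2 factors other than MEF2C, neither *MEF2A* nor *MEF2D* changed with any induction at its brightest probe set. *MEF2A*, a broadly expressed member of the family, had condition means of 9.21 to 9.52 on probe set 212535_at and changed by -0.10 ± 0.05 with pooled MEF2C induction (adjusted p = 0.365). On OP9-GFP it read 9.34, 9.37 and 9.28 with dox, against 9.49, 9.66 and 9.42 without, a change of -0.19 (adjusted p = 0.0662, and 0.0178 without dim probe sets). The groups on OP9-GFP did not overlap. Other probe sets of *MEF2A* differed from the brightest: with ICN induction 208328_s_at changed by 0.29 (adjusted p = 0.0107) and 214684_at by 0.32 (adjusted p = 0.00491), against 0.08 on 212535_at (adjusted p = 0.529). On OP9-GFP compared with medium, without dox, 214684_at was higher by 0.63 (adjusted p = 1.04e-06) and 212535_at by 0.18 (adjusted p = 0.0482, or 0.258 without the OP9-GFP array that stood apart). *MEF2D*, another broadly expressed member, had condition means of 6.33 to 6.65 on 225641_at, and its pooled change was 0.04 ± 0.06 (adjusted p = 0.820). Its dim probe set 203003_at was lower by -0.32 with MEF2C and ICN (4.83 with dox, against 5.15 without, adjusted p = 0.0430).

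*HDAC5*, a class IIa deacetylase that CaM kinase and protein kinase D signaling export from the nucleus, was higher with dox in every line and culture. In LOUCY_MEF2C-BFP cells it read 8.76, 8.61 and 8.75 with dox in medium, against 8.27, 8.36 and 8.42 without. The arrays on OP9-GFP read 8.73, 8.81 and 8.72 with dox, against 8.34, 8.33 and 8.52 without. On OP9-DL1 it read 8.71, 8.73 and 8.60 with dox, against 8.20, 8.26 and 8.37 without. All 9 arrays with dox were above all 9 without, and the pooled change was 0.37 ± 0.05 (1.29-fold, adjusted p = 2.35e-05). The 3 cultures gave 0.36, 0.36 and 0.40, and each of these 3 single-culture calls was lost with 1 replicate number left out (adjusted p of 0.0628 to 0.263). In the ICN line it read 8.96, 8.83 and 9.03 with dox, against 8.46, 8.25 and 8.50 without, a change of 0.54 ± 0.08 (adjusted p = 1.47e-05). In the MEF2C and ICN line it read 9.40, 9.31 and 9.30 with dox, against 8.39, 8.23 and 8.30 without. That change of 1.03 ± 0.08 (2.04-fold, adjusted p = 1.17e-10) exceeded the one in the LOUCY_MEF2C-BFP line by 0.67 ± 0.11 (adjusted p = 0.000109) and the one in the ICN line by 0.49 ± 0.11 (adjusted p = 0.00422, or 0.112 and 0.0695 without replicate number 1 or 3). Without dox, *HDAC5* was at 8.28 to 8.40 in all 5 line and culture combinations. The dimmer *HDAC5* probe set, 229408_at, passed the test only with MEF2C and ICN (0.46, adjusted p = 0.00276), and changed by 0.09 with pooled MEF2C induction (adjusted p = 0.523).

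*HDAC4*, which CaM kinases bind and phosphorylate, had the largest change of the 7 measured members with ICN alone, by their brightest probe sets. In the ICN line it read 9.29, 9.37 and 9.37 with dox, against 8.0, 8.09 and 8.06 without, a change of 1.29 ± 0.08 (2.44-fold, adjusted p = 2.63e-12). All 3 of its probe sets rose, by 0.59 to 1.40. In the MEF2C and ICN line it read 8.18, 8.14 and 8.07 with dox, against 7.65, 7.64 and 7.64 without. That change of 0.48 ± 0.08 (adjusted p = 4.27e-05) was smaller than in the ICN line by -0.80 ± 0.11 (adjusted p = 1.01e-05), and the groups in neither line overlapped. In LOUCY_MEF2C-BFP cells *HDAC4* read 7.25, 7.49 and 7.41 with dox in medium, against 7.23, 7.54 and 7.46 without, a change of -0.03 ± 0.08. On OP9-GFP it read 7.69, 7.59 and 7.58 with dox, against 7.96, 8.04 and 7.79 without, and on OP9-DL1 7.80, 7.78 and 7.71 with dox, against 8.41, 8.32 and 8.27 without. The groups overlapped in medium and not on either stroma. The change on OP9-DL1 was -0.57 ± 0.08 (adjusted p = 1.53e-05), and that on OP9-GFP was -0.31 ± 0.08 (adjusted p = 0.0131, or 0.0873 without the array that stood apart). The differences between cultures, of -0.28 ± 0.11 for OP9-GFP minus medium (adjusted p = 0.478) and -0.26 ± 0.11 for OP9-DL1 minus OP9-GFP (adjusted p = 0.543), did not pass the test. Pooled over the cultures, the change of -0.30 ± 0.14 was not called (adjusted p = 0.275), but it was with the culture as a covariate (adjusted p = 0.00751) or without the arrays in medium (-0.44, adjusted p = 0.0125).

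The level of *HDAC4* without dox also differed by culture. OP9-DL1 exceeded OP9-GFP by 0.40 ± 0.08 (adjusted p = 0.00453, 1.37% of all probe sets called), a call lost with any replicate number left out (adjusted p of 0.0631 to 0.269), and on 228813_at by 0.60 (adjusted p = 0.00228). OP9-GFP exceeded medium by 0.52 ± 0.08 on 204225_at (adjusted p = 1.99e-05, 18% of all probe sets called). Over the 3 probe sets of *HDAC4* this difference ranged from -0.11 to 0.52, and only 1 was called. With dox it was 0.24 on 204225_at (adjusted p = 0.0349, 18.1% called) and -0.38 on 228813_at (adjusted p = 0.0143). The probe sets of *HDAC4* thus disagreed in direction with dox as well. The ICN line without dox was above the LOUCY_MEF2C-BFP line in medium without dox by 0.64 ± 0.08 (adjusted p = 7.55e-07, 21.4% called). Over the cultures of the LOUCY_MEF2C-BFP line without dox *HES1* had the same order, at 9.34 on OP9-DL1, 7.45 on OP9-GFP and 5.59 in medium. Over the lines in medium without dox the order was also shared. *HES1* was at 10.19 in the ICN line, 9.34 in the MEF2C and ICN line and 5.59 in the LOUCY_MEF2C-BFP line. *HDAC4* on 204225_at exceeded the LOUCY_MEF2C-BFP line by 0.64 in the ICN line and by 0.23 in the MEF2C and ICN line (adjusted p = 0.0341, limma). Across lines and cultures together the order was not shared. The MEF2C and ICN line matched OP9-DL1 in *HES1* at 9.34, but was below it in *HDAC4*. The part of Notch signaling in the *HDAC4* levels was not tested. The same holds for the difference between the lines.

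*HDAC9* is a class IIa deacetylase with truncated forms that also bind MEF2. At its brightest probe set it was lower in both lines with ICN than in LOUCY_MEF2C-BFP cells in medium. In both lines it was lower again with dox. Without dox, the arrays of the ICN line overlapped with those of LOUCY_MEF2C-BFP cells on OP9-DL1. With dox in the ICN line probe set 205659_at read 8.06, 8.02 and 7.95, against 8.45, 8.58 and 8.45 without, a change of -0.48 ± 0.08 (adjusted p = 0.000123). In the MEF2C and ICN line it read 8.08, 8.06 and 8.05 with dox, against 8.28, 8.42 and 8.25 without. This change of -0.25 ± 0.08 (adjusted p = 0.0398) was lost after quantile normalization was run again (adjusted p = 0.0857) or with any replicate number left out (adjusted p of 0.167 to 0.204). The groups did not overlap in either line. Without dox, the ICN line was lower than the LOUCY_MEF2C-BFP line in medium by -0.66 ± 0.08 (adjusted p = 1.13e-06) and the MEF2C and ICN line by -0.84 ± 0.08 (adjusted p = 2.33e-08, 20.2% of all probe sets called). The first of these was -0.16 over the mean of all 5 *HDAC9* probe sets (adjusted p = 0.107). Without dox, 1 of the 5 was called lower in the ICN line and 2 in the MEF2C and ICN line. The change with dox was called lower for 2 of the 5 in each line.

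In LOUCY_MEF2C-BFP cells *HDAC9* read 9.11, 9.33 and 9.32 with dox in medium, against 9.15, 9.17 and 9.14 without. The arrays on OP9-GFP read 9.20, 9.16 and 9.21 with dox, against 8.74, 9.04 and 8.60 without. On OP9-DL1 it read 8.49, 8.53 and 8.54 with dox, against 8.53, 8.63 and 8.55 without. Only on OP9-GFP did the groups not overlap, with a change of 0.40 ± 0.08 (adjusted p = 0.00231), a call lost without replicate number 1 or 3 (adjusted p = 0.0970 and 0.221). With dox, OP9-DL1 was lower than OP9-GFP by -0.67 ± 0.08 (adjusted p = 1.21e-05, 1.23% of all probe sets called), and 230968_at by -0.54 (adjusted p = 0.00210). The induction on OP9-DL1 minus that on OP9-GFP was -0.45 ± 0.12 (adjusted p = 0.158), or -0.57 without the OP9-GFP array that stood apart (adjusted p = 0.0103).

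*HDAC7*, the class IIa member best known from thymocytes and endothelium, varied least among the deacetylases, with condition means of 7.38 to 7.90 on 217937_s_at. It read 7.99, 7.92 and 7.79 with dox in the MEF2C and ICN line, against 7.55, 7.65 and 7.52 without, a change of 0.32 ± 0.08 (adjusted p = 0.00886) that was lost with any replicate number left out (adjusted p of 0.0529 to 0.136). The groups did not overlap. The pooled change with MEF2C induction was 0.15 ± 0.05 (adjusted p = 0.0869, and 0.0349 by the methods' t-test). The ICN line exceeded the LOUCY_MEF2C-BFP line without dox by 0.31 ± 0.08 (adjusted p = 0.00987), a call also lost with any replicate number left out (adjusted p of 0.0649 to 0.0936).

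The change in the MEF2C and ICN line was also set against the sum of the changes in the LOUCY_MEF2C-BFP line in medium and in the ICN line, a contrast chosen after the values were seen. *MEF2C* fell further than the sum, by -0.88 ± 0.08 on 209199_s_at (adjusted p = 7.05e-08) and by -0.91 ± 0.11 on 209200_at (adjusted p = 2.62e-06), where 4.68% of all probe sets were called. *HDAC4* rose less than the sum, by -0.78 ± 0.13 (adjusted p = 0.000445). *HDAC5* differed from the sum by 0.13 ± 0.14 (adjusted p = 0.673) and *HDAC9* by 0.13 ± 0.14 (adjusted p = 0.702), and neither passed the test. The 3 lines already differed without dox, as the levels of *HES1* and, further below, *HDAC2* show. The part of this in the contrast was not tested.

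**Figure D3:**
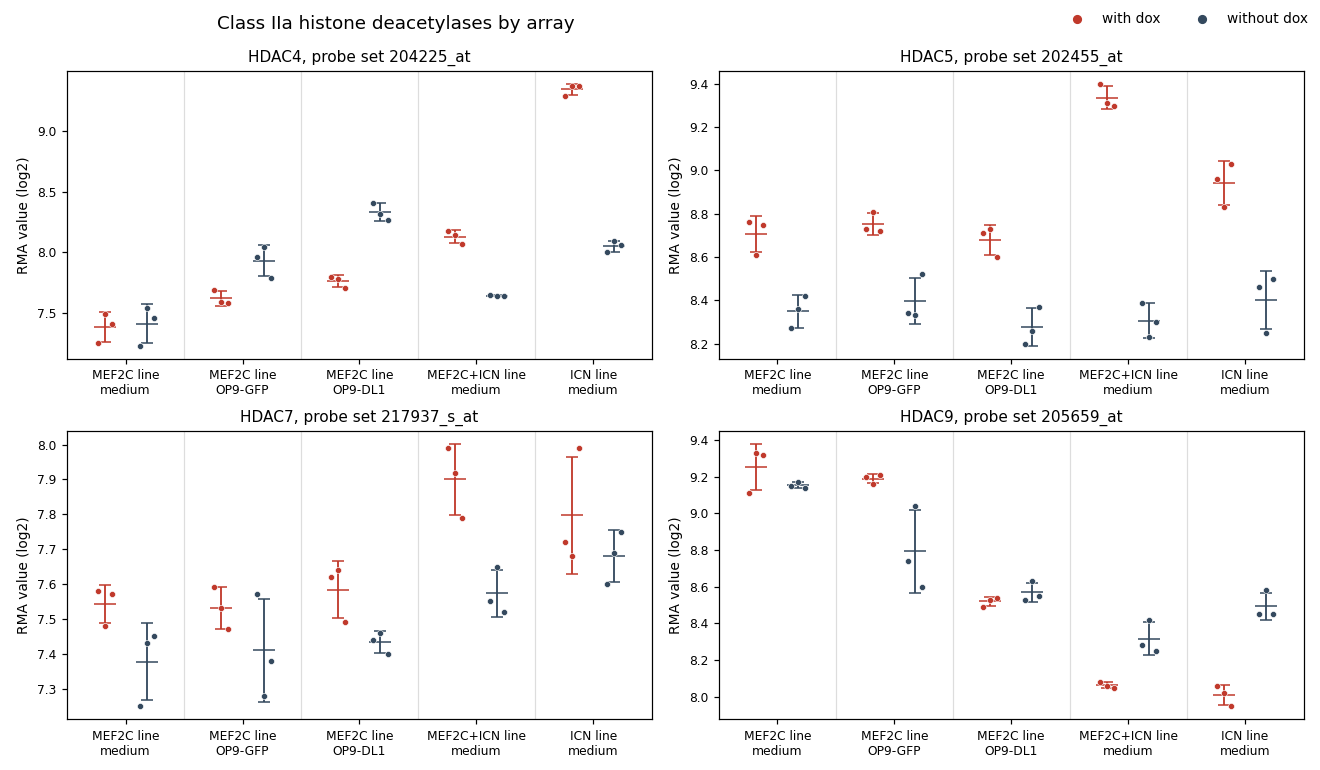
RMA values (log2, y axis) of *HDAC4*, *HDAC5*, *HDAC7* and *HDAC9* by line and culture (x axis), with dox in red left of without dox in dark blue. Points are the 3 arrays, and bars are the mean ± SD. *HDAC4* is highest in the ICN line with dox at 9.34, *HDAC5* in the MEF2C and ICN line with dox at 9.34, and *HDAC9* is lowest in the ICN line with dox at 8.01.

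By the likeness of their 10 condition means, *MEF2C* 209199_s_at was closest to *CROCC* (Pearson r = 0.968), *RAC2* (0.968) and *SLC4A4* (0.967). For 209200_at the closest were *RAC2* (0.968), *CROCC* (0.966) and *LAPTM5* (0.965). The probe set 207968_s_at was closest to *C21orf91-OT1* (0.954), *LOC102723692* (0.932) and *FAM13C* (0.929). *HDAC4* was closest to *LRP12* (0.974), *ECE1* (0.968) and *INTS13* (0.964), and *HDAC5* to *DYRK3* (0.966), *GAREM1* (0.935) and *KLF12* (0.921). *HDAC9* was closest to *CA5B* (0.967), *KCNQ1OT1* (0.963) and *MTMR11* (0.962). These are the highest of 19775 genes over 10 points that share lines and cultures, and they are given as a description.

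Of 16 genes of kinases that phosphorylate class IIa deacetylases or, as *STK11*, activate such kinases, 15 were measured, and pooled MEF2C induction called 1 higher and 3 lower, against 2.85% higher and 2.55% lower of all probe sets. The list median was -0.03. *CAMK4*, the calcium/calmodulin-dependent kinase of T cells and neurons, read 7.72, 7.88 and 7.87 with dox in medium, against 6.52, 6.66 and 6.72 without. On OP9-GFP it read 8.41, 8.38 and 8.36 with dox, against 6.48, 6.67 and 6.27 without, and on OP9-DL1 8.12, 8.05 and 7.93 with dox, against 6.53, 6.44 and 6.49 without. All 9 arrays with dox exceeded all 9 without, by 1.55 ± 0.09 (adjusted p = 3.71e-10). *CAMK4* also rose with MEF2C and ICN, by 1.86 (adjusted p = 5.21e-15), and fell with ICN alone, with a change of -0.32 (adjusted p = 0.0119). *CAMK2D* and *CAMK2G*, subunits of CaM kinase II, changed by -0.53 (adjusted p = 0.00731) and -0.24 (adjusted p = 0.00436), and *PRKD2*, the main protein kinase D of lymphocytes, by -0.25 (adjusted p = 0.00221). *PRKD2* changed by -0.92 with MEF2C and ICN (adjusted p = 3.58e-11).

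The salt-inducible kinases did not pass the test with MEF2C induction: the pooled changes were -0.03 ± 0.06 for *SIK1* (adjusted p = 0.903), 0.19 ± 0.08 for *SIK2* (adjusted p = 0.241) and -0.07 ± 0.08 for *SIK3* (adjusted p = 0.730). *SIK3* read 8.06, 8.03 and 8.06 with dox in the MEF2C and ICN line, against 8.58, 8.70 and 8.61 without, a fall with a change of -0.58 ± 0.06 (adjusted p = 5.82e-08). In the ICN line it read 8.32, 8.18 and 8.15 with dox, against 8.49, 8.43 and 8.43 without (-0.23, adjusted p = 0.0104). The groups did not overlap in either line.

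None of the 7 genes of 14-3-3 proteins was called with pooled MEF2C induction (median -0.03), where 5.41% of all probe sets were called. *YWHAH* was higher with dox on OP9-DL1 by 0.56 (adjusted p = 1.6e-07), and with dox OP9-DL1 exceeded OP9-GFP by 1.16 (adjusted p = 5.13e-13). Of 14 measured corepressors and other histone deacetylases none was called (median -0.03). Among them *HDAC2* differed between lines without dox. Its lowest condition mean was 2.33, in the MEF2C and ICN line without dox, and its highest 10.35, in the ICN line without dox. The part of this in the contrasts with these lines was not tested. Of 20 measured coactivators and upstream signaling genes, 2 were higher and 3 lower (median -0.05), where 2.85% of all probe sets were higher and 2.55% lower. *PPP3CC*, a catalytic subunit of the phosphatase calcineurin, rose by 0.54 (adjusted p = 7.62e-06), whereas *NFATC3*, a calcineurin-regulated factor, changed by -0.27 (adjusted p = 0.000405) and *KAT2B*, an acetyltransferase, by -0.26 (adjusted p = 0.00559). At an unadjusted p under 0.05 the counts with pooled induction were 0 of 7 genes of 14-3-3 proteins and 2 of 14 corepressors and deacetylases, and the methods' t-test with adjustment called 0 in both.

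Of 19 genes known to respond to MEF2, pooled induction called 4, all higher (2.85% of all probe sets were called higher and 2.55% lower), and the list median was -0.08. The list was chosen with earlier results of these data known, and the study reports *BCL2* as raised on these arrays. The share called is therefore not independent of the data. *CSRP3*, a muscle LIM protein, read 9.34, 9.14 and 9.24 with dox in medium, against 5.01, 4.79 and 4.81 without, and rose by 3.69 ± 0.33 over the 3 cultures (adjusted p = 1.89e-07). *KLF2* rose by 0.81 (adjusted p = 0.00866) and *BCL2*, the antiapoptotic protein, by 0.73 (adjusted p = 0.00100). With MEF2C and ICN the same list gave 0 higher and 2 lower, against 5.26% and 8.03% of all probe sets. *CSRP3* there read 4.28, 3.65 and 4.0 with dox, against 3.64, 3.96 and 3.33 without, groups that overlap, and its change was lower than in the LOUCY_MEF2C-BFP line by -4.04 ± 0.22 (adjusted p = 7.36e-13). The *MEF2C* probe set 207968_s_at rose in both lines, by 0.66 with MEF2C and ICN and by 0.53 in medium with MEF2C alone. The first call was lost without replicate number 3 (adjusted p = 0.085), the second without number 1 or 3. Whether the construct was induced alike in both lines was not tested, as the sources do not state which probe set reads it. *BCL2* changed by 0.16 with MEF2C and ICN (adjusted p = 0.137) and by -1.59 with ICN alone (adjusted p = 4.41e-15). In all, 7 of the 19 genes were lower and 0 higher in the difference between these 2 lines, against 5.36% lower and 2.54% higher of all probe sets.

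**Figure D4:**
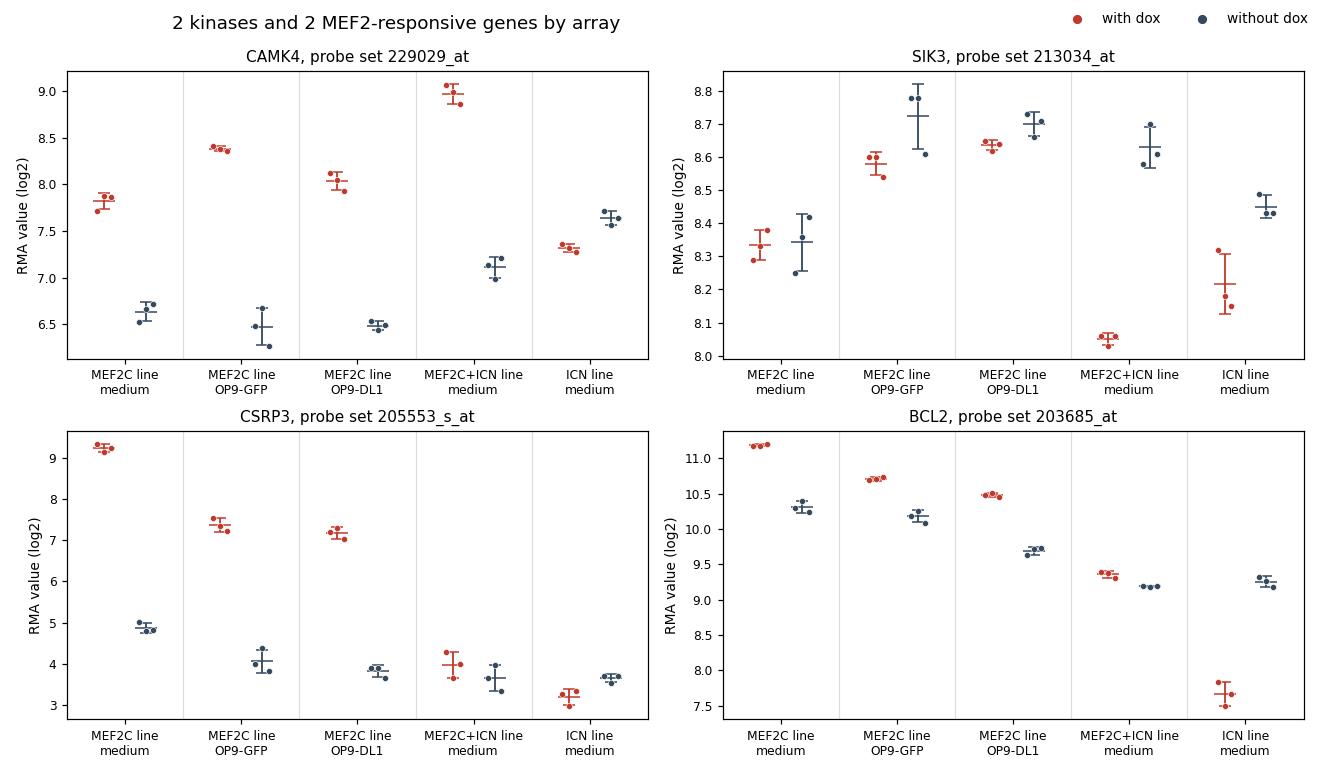
RMA values (log2, y axis) of *CAMK4*, *SIK3*, *CSRP3* and *BCL2* by line and culture (x axis), with dox in red left of without dox in dark blue. Points are the 3 arrays, and bars are the mean ± SD. *CAMK4* is higher with dox in all 4 conditions with the MEF2C construct, whereas *CSRP3* is higher with dox in the LOUCY_MEF2C-BFP line and its arrays overlap in the MEF2C and ICN line.

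T cell and LOUCY markers moved with the same inductions. With pooled MEF2C induction 5 of 8 were lower and 0 higher, against 2.55% and 2.85% of all probe sets (summed group means of 57.1 to 58.6 with dox, against 60.2 to 61.1 without), and *CD3D* changed by -0.64 (adjusted p = 1.08e-05). With ICN alone 2 of 8 were higher and 2 lower: *CD3D* rose by 0.74 (adjusted p = 5.73e-10) and *CD3E* by 0.81 (adjusted p = 1.43e-07), whereas *LYL1* changed by -0.96 (adjusted p = 3.8e-10) and *LMO2* by -0.82 (adjusted p = 9.72e-09). The sums were 60.7 with dox and 61.2 without. Of the markers of other cells, pooled induction called 0 of 4 for B cells, 1 of 4 for myeloid cells, 1 of 2 for erythroid cells and 1 of 7 for stroma, each of the called ones lower, beside the same 2.55% of all probe sets. The part of such shifts in the changes of the MEF2 and deacetylase genes was not tested.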

How the data were processed

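Expression in LOUCY lines was read on 30 arrays (Affymetrix HG U133 Plus 2.0), with 3 arrays in each of 10 conditions taken from the sample labels. The authors deposited log2 values from RMA, for which affy 1.64.0 and R 3.6.3 stand in the submitters' processing notes. RMA forces a common distribution on the arrays, which hides any shift in the amount of RNA per cell and compresses changes of dim probe sets. Precision is limited by the number of arrays, since they carry no read depth.

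Values were used as deposited, without 62 control probe sets. Of the 54613 probe sets tested, 41091 carry 1 symbol in the platform annotation, 1801 several and 11721 are not listed. Of the first, 41037 matched a gene identifier in the RefSeq gene table (GRCh38.p14), which changed 0 symbols. Promoter sequences are from RefSeq in the same build.

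Differences were tested with limma 3.58.1 (R 4.3.3), with p-values adjusted by Benjamini-Hochberg over all 54613 probe sets, and called at an adjusted p under 0.05. Pooled MEF2C induction compared 9 arrays with dox and 9 without, following the design in the study's methods, without covariates. A further 15 comparisons came from 1 model over 30 arrays.

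Named are the 8 members, every *MEF2C* probe set, up to 3 genes of each of 5 lists with the largest pooled changes among those called, *SIK1*, *SIK2*, *SIK3*, and the 3 genes most alike by the condition means of each *MEF2C* probe set and of each other member whose condition means span at least 1. Genes beyond these and values of list genes in other comparisons (*YWHAH*, *CAMK2G*, *PRKD2* and *BCL2* with ICN, *CSRP3* with MEF2C and ICN, the marker and Notch genes) were chosen after their values were seen. So were the levels of *HDAC2*. The members and lists were chosen with earlier results of these data known. The steps were tested on simulated data. The alternatives left out probe sets whose mean was below 5, or used quantile normalization again, median centring, a trended and robust prior, control probe sets kept, a replicate block, only the groups compared, the mean of a gene's probe sets, and each replicate number left out, and for the pooled comparison the culture as a covariate, each culture left out and the methods' t-test. Leaving out replicate 2 of OP9-GFP without dox, and the contrast with the sum of 2 changes, were chosen after seeing the data.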

Additional observations from a re-analysis of the deposited data

Results flagged for a closer look

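Of 18 sets of 9 arrays tested for a single far value, 1 was flagged, and chance flags about 1 in 20. *MEF2C* 207968_s_at read 6.897 in replicate 2 of OP9-GFP without dox, the lowest of the 9 arrays of LOUCY_MEF2C-BFP cells without dox.

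Differences between lines in the change with dox passed the test for 3 members. On *MEF2C* 209199_s_at the change in the MEF2C and ICN line differed by -1.133 from that in the LOUCY_MEF2C-BFP line in medium and by -1.951 from that in the ICN line. On 209200_at the same differences were -1.231 and -1.955. On 207968_s_at the difference from the ICN line was 1.14. For *HDAC4* the change in the MEF2C and ICN line differed by 0.5118 from that in the LOUCY_MEF2C-BFP line and by -0.8021 from that in the ICN line. For *HDAC5* these differences were 0.6732 and 0.4922. The *HDAC4* difference of 0.5118 lost its call without replicate number 2 or 3 (adjusted p = 0.0628 and 0.0876) and over the mean of its probe sets (0.31, adjusted p = 0.0957).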

How the results depend on the processing

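Of 1642 values of 144 results under the alternatives, 1508 kept their direction and their side of the threshold. Of 63 called results, 31 were called under every alternative run and 32 lost the call under at least 1. The fall of *MEF2C* 209199_s_at with dox kept its call throughout in the pooled comparison, in each culture and with MEF2C and ICN. The same-numbered arrays of the groups compared correlated at -0.14 to 0.187 over 33 pairs, with 7 over 0.1 and 4 below -0.1. These values had no reference to be set against, so they do not settle whether the numbers pair the samples. With the replicate number as a block the pooled change was -1.06, the counts of calls moved by ratios of 0.889 to 1.05, and 2 calls of members changed: *MEF2A* on OP9-GFP over medium without dox was lost (adjusted p = 0.0503) and the *HDAC9* difference between the MEF2C and ICN line and the LOUCY_MEF2C-BFP line in the change with dox was gained (-0.35, adjusted p = 0.0423).

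The small differences of 209199_s_at lost their calls. Over only the groups compared, with fewer arrays, they were 0.193 for OP9-DL1 over OP9-GFP without dox and 0.320 with dox, -0.188 for OP9-GFP over medium without dox, -0.258 for ICN induction and -0.204 for the MEF2C and ICN line over the LOUCY_MEF2C-BFP line without dox. Over the mean of the probe sets of *MEF2C* they were 0.199 for OP9-DL1 over OP9-GFP with dox and -0.0455 for OP9-GFP over medium with dox. OP9-DL1 over OP9-GFP without dox was 0.187 after median centring and, as chosen after seeing the data, 0.177 without the OP9-GFP array that stood apart. With 1 replicate number left out, the ranges were 0.164 to 0.218 for OP9-DL1 over OP9-GFP without dox, 0.310 to 0.326 with dox, -0.206 to -0.157 for OP9-GFP over medium without dox, -0.244 to -0.214 with dox, -0.271 to -0.244 for ICN induction and -0.214 to -0.198 for the MEF2C and ICN line over the LOUCY_MEF2C-BFP line.

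Over the mean of a gene's probe sets 2 results reversed: *MEF2A* in the MEF2C and ICN line over the LOUCY_MEF2C-BFP line without dox, to 0.197 (adjusted p = 0.00995), and *HDAC4* on OP9-GFP over medium with dox, to -0.0348 (adjusted p = 0.845). The cause was not tested. Dim probe sets such as that of *MEF2B* limit what can be seen.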

Other observations

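With ICN alone, the acetyltransferase genes *EP300* and *CREBBP*, whose products bind MEF2 in place of class IIa deacetylases, were higher with dox by 0.49 (adjusted p = 0.000789) and 0.32 (adjusted p = 0.00998). *KAT2B* was higher with ICN alone by 0.31 (adjusted p = 0.00494), and lower with MEF2C and ICN, by -0.48 (adjusted p = 3.24e-05).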
